A study of Mus musculus with 5 samples.

Results

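The cytosolic ribosomal protein genes encode the proteins of the small and large subunits of the ribosome that translates nuclear mRNAs. They were chosen by symbol, as protein-coding genes of the GENCODE annotation of GRCm38 named Rpl or Rps with a number, together with Rpsa, Rplp0, Rplp1 and Rplp2, and without the Rps6k kinases and pseudogenes. The rule gave 86 of 21951 protein-coding genes, 52 named for the large and 34 for the small subunit. One of the 86, Rps19bp1, meets the rule by its symbol but encodes a protein that binds RPS19 and is not part of the ribosome. It stays in all counts, also where it is not named, unless it is said to be left out. The mark was scored in the lists of acetylated regions from memory-type (TM) CD8+ T cells, in 2 WT libraries and in 3 TPdh-/- libraries.

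TM cells were OT-I T cells, which carry a transgenic receptor for an ovalbumin peptide, activated with that peptide and then cultured with IL-15. TPdh-/- cells came from Pdha1 floxed mice crossed to CD4-Cre, a Cre line that acts while T cells develop in the thymus and therefore also in CD4+ T cells, and WT cells were treated the same way. Adult mice of both sexes were used, and the sex behind each library is not given. The study describes its measurements as taken from separate samples, but which mouse each of these libraries came from is not given, so p-values measure only the spread between these libraries, which may be technical. Chromatin was precipitated with an antibody to acetylated histone lysine, and the sample labels name lysine 18. The lists held between 4920 and 15962 peaks, and read numbers are not in them. The paper states only a minimum number of reads, so the depth of each library is unknown. Pdha1, the deleted gene, had a promoter peak in 1 library, WT replicate 1 (fold 2.25), and the presence of this mark is no check of the deletion. Of 12 T cell markers (Cd3, Cd8, Lck, Zap70 and others), 12, 9, 5, 6 and 9 had a promoter peak in WT replicates 1 and 2 and TPdh-/- replicates 1, 2 and 3. Of 4 myeloid markers none did in any library, of 4 B cell markers 1 did in WT replicate 1 alone, of 3 erythroid markers 2, 1, 0, 0 and 1 did, of 4 epithelial and liver markers 1 did in TPdh-/- replicate 3 alone, and of Cd4 and Zbtb7b 2, 1, 0, 0 and 0 did.

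Ribosomal protein genes are transcribed at a very high rate in growing cells, because each ribosome needs one copy of nearly every protein. In lymphocytes their output rises with activation, through mTOR signalling and Myc, and their mRNAs begin with a pyrimidine tract that ties their translation to mTOR. Their promoters mostly lack a TATA box, lie in CpG-rich DNA, and often hold sites for ETS factors such as GABP. Acetylation of histones at a promoter generally accompanies transcription.

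Bases before the start were taken from RefSeq (GRCm38.p6) for 66 of the 86 genes, and those of 6 are shown because they span the range of the data. Rps6, Rps18 and Rpl27a had a peak in all 5 libraries and hold CCGGAA, the form of the ETS site that was searched for. Rpl19 and Rpl4 were among the strongest and lack these exact letters, and Rps4x had no peak in any library. Other forms of the ETS site were not searched for. Each line gives the 100 bases before the RefSeq start, 5′ to 3′ on the strand of the gene, and capitals mark CCGGAA or its reverse complement TTCCGG, which overlap in Rps18.
Rps6 (chr4:86857368-86857467, minus strand): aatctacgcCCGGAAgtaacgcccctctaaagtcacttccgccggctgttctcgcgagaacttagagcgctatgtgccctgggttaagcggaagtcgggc
Rps18 (chr17:33955666-33955765, minus strand): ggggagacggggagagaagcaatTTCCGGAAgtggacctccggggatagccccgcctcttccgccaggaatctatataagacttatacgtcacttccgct
Rpl27a (chr7:109519095-109519194, plus strand): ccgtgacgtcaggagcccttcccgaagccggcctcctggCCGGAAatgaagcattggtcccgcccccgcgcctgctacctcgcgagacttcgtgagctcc
Rpl19 (chr11:98026824-98026923, plus strand): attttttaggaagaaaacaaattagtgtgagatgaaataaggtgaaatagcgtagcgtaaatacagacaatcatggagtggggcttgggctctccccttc
Rpl4 (chr9:64173287-64173386, plus strand): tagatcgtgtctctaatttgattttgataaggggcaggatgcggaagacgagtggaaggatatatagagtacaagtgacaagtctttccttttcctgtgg
Rps4x (chrX:102189392-102189491, minus strand): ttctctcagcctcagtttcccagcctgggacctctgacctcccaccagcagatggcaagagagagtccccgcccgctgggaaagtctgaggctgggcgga
The first 5 of these stretches lay wholly under the gene's peak in all 5 libraries. CCGGAA was found, on either strand, in the 250 bases before the start of 24 of the 66 genes (36.4%) and of 15.8% of 16521 protein-coding genes with an entry. TATAAA was found in 3 (4.55%, against 11.9%) and GGGCGG, the GC box of SP1, in 32 (48.5%, against 44.7%). By presence of the mark, CCGGAA was found in 6 of 15 genes with a peak in all 5 libraries, 13 of 29 with a peak in 3 or 4, 4 of 15 with a peak in 1 or 2, and 1 of 7 with none. The median ratio of observed to expected CpG was 0.977, 0.815, 0.755 and 0.556 in the same order, beside 0.562 over all coding genes. The ratio was thus lower where fewer libraries held a peak. The same split of all coding genes by number of libraries is not given. These are matches of letters, and no binding was measured.

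A promoter peak was a peak within 3000 bp of any annotated start of the gene. Such peaks were found at most ribosomal protein genes in both WT libraries and TPdh-/- replicate 3, and at a minority in TPdh-/- replicates 1 and 2. In WT replicate 1, 78 of 86 genes (90.7%) had one, where 42.1% of all protein-coding genes did. In WT replicate 2, 60 genes (69.8%) had one, where 24.8% of coding genes did. In TPdh-/- replicates 1, 2 and 3, 35 (40.7%), 32 (37.2%) and 60 (69.8%) genes had one, where 15.3%, 16.5% and 27.9% of coding genes did. The share at ribosomal protein genes was thus 2.15 and 2.82 times that of coding genes in WT and 2.66, 2.25 and 2.5 times in TPdh-/-. The lists of WT replicate 2 and TPdh-/- replicate 3 called the same number of these genes, and 57 of them were shared. The large subunit had 47, 36, 23, 18 and 36 of its 52 genes called, and the small subunit 31, 24, 12, 14 and 24 of its 34, in that order of libraries. The 78 genes of the mitochondrial ribosome, which are transcribed in the nucleus as well, had 64, 28, 21, 24 and 32 called.

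**Figure D1:**
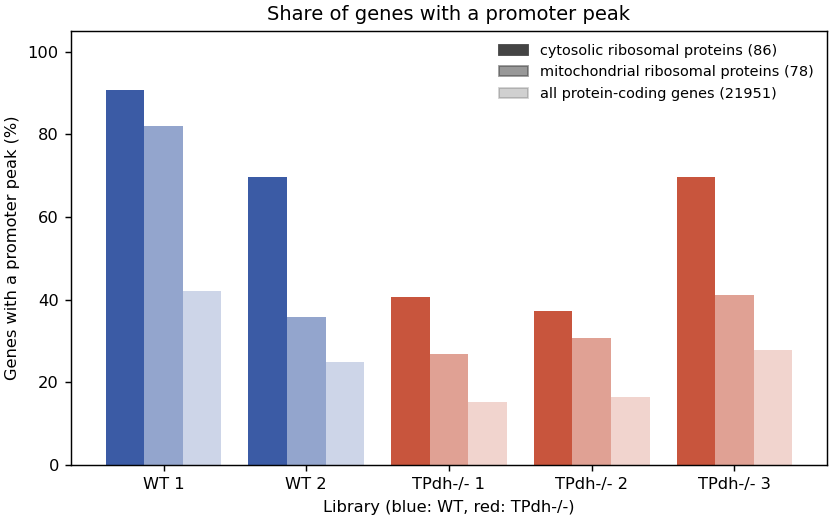
Share of genes with a promoter peak (%) in each library, for 86 cytosolic and 78 mitochondrial ribosomal protein genes and all 21951 protein-coding genes. In each library the bar of the cytosolic genes is the highest of the 3, from 90.7% in WT replicate 1 to 37.2% in TPdh-/- replicate 2.

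The WT libraries averaged 80.2 ± 14.8% (SD, n = 2), and the TPdh-/- libraries 49.2 ± 17.9% (SD, n = 3). The gap of 31.0 percentage points left the groups overlapping, with TPdh-/- replicate 3 level with WT replicate 2 (p = 0.4, two-sided exact permutation over the 10 ways of choosing 2 of 5 libraries). Without WT replicate 1 it was 20.5 points. Over all coding genes the difference was 13.5 points (exact permutation test, p = 0.4). Because 0.2 is the smallest p that 2 against 3 libraries can give, 0.05 is out of reach for every group comparison here. The longest lists, WT replicate 1 and TPdh-/- replicate 3 with 15962 and 9418 peaks, were among those with the highest shares, and each list was therefore also reduced to its 4920 strongest peaks. Peaks were then found at 62.8% and 60.5% of the genes in WT and at 40.7%, 37.2% and 53.5% of them in TPdh-/-, and both WT libraries lay above every TPdh-/- library (difference 17.8 points, exact permutation test, two-sided, p = 0.2). Over all coding genes the shares were 19.9% and 17.1% against 15.3%, 15.8% and 18.7%, and these overlapped (difference 1.9 points, p = 0.4, exact permutation test). The ratio of the 2 shares was 3.16 and 3.53 in WT and 2.66, 2.36 and 2.86 in TPdh-/- (p = 0.2, exact permutation test). With the 2000 strongest peaks the groups overlapped, at 25.6% and 23.3% in WT and 20.9%, 19.8% and 25.6% in TPdh-/-. Of the 5 list lengths compared, the groups were separate at 4000 and 4920 peaks and overlapped at 1000, 2000 and 3000. With 1000 peaks the order of the means turned, at 9.87% in WT and 10.5% in TPdh-/-. With 500 peaks, a length outside those 5, the groups were separate the other way. WT stood at 6.98% and 5.81%, below TPdh-/- at 9.3%, 8.14% and 8.14%. The direction of the separation thus depended on the length kept.

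**Figure D2:**
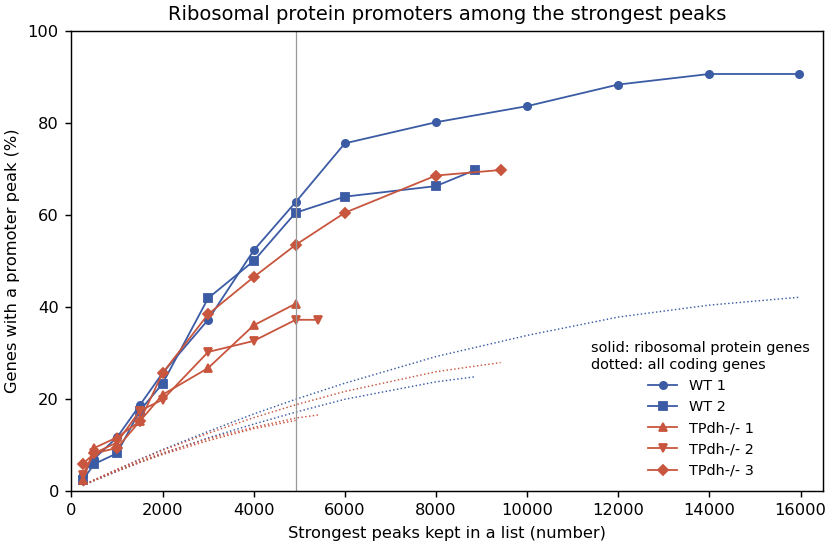
Share of ribosomal protein genes (solid) and of all coding genes (dotted) with a promoter peak (%), against the number of strongest peaks kept in each list, ranked by −log10 q. At 4920 peaks (grey line) the WT libraries stand at 62.8% and 60.5% and the TPdh-/- libraries at 40.7%, 37.2% and 53.5%.

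Nearly every gene called elsewhere was also called in the longest list, at these genes as over the genome. All 60 genes called in any TPdh-/- library, and all 60 called in WT replicate 2, were also called in WT replicate 1, beside 97.1% and 98.4% of the coding genes so called. In all 5 libraries 21 genes (24.4%) had a peak, where 10.9% of coding genes did. That count was 33 without TPdh-/- replicate 2 and 4 at a −log10 q of at least 5. Without the 45 genes whose window overlaps that of another coding gene it was 7 of 41 (17.1%). The shares of coding genes under these settings are not given, and 10.9% is not their background. A further 14 (16.3%) had a peak in both WT libraries and TPdh-/- replicate 3 but not in TPdh-/- replicates 1 or 2. That pattern held 4.81% of coding genes. In WT replicate 1 alone 15 (17.4%) had one, beside 11.2% of coding genes. Rps3, Rpl29 and Rpl36 (3.49%) had one in both WT libraries and no TPdh-/- library, beside 2.2% of coding genes, and no protein-coding gene (0.0%) had the opposite pattern. Without TPdh-/- replicate 3 this count was 17, and without WT replicate 2 it was 18. The 17 include the 14 genes above and the 18 include the 15, patterns of 4.81% and 11.2% of coding genes. TPdh-/- replicates 1 and 2 were not nested. Of the 45 genes called in either, 22 (48.9%) were called in both, 13 in replicate 1 without replicate 2 and 10 the other way, and over coding genes 56.7% were called in both. No peak was found in any library at 8 genes (9.3%), where 56.8% of coding genes had none.

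**Figure D3:**
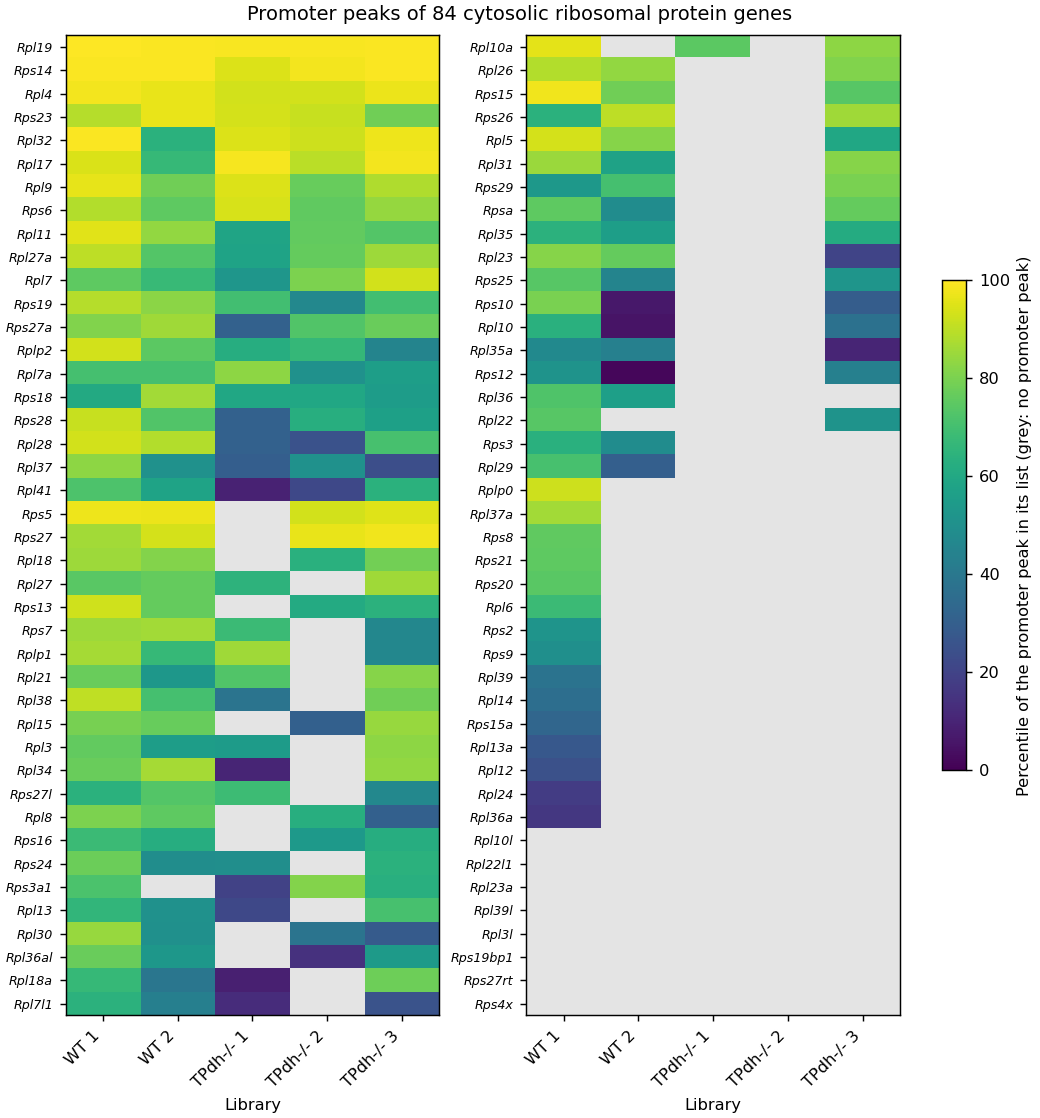
Percentile of the promoter peak within its own list (colour, 100 the strongest by −log10 q) for 84 of the genes (rows, ordered by the number of libraries with a peak) and 5 libraries (columns), grey where no promoter peak was called. The top 20 rows are filled in all 5 columns, 15 genes are filled in WT replicate 1 alone, and the last 8 are grey throughout.

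The peaks lay on the starts of the genes. Of 265 peaks at ribosomal protein genes, 230 (86.8%) covered an annotated start. Cover was highest 100 to 300 bp inside the gene, where a peak lay over 81.4% and 57.0% of the genes in WT and 36.0%, 30.2% and 61.6% in TPdh-/-. Over all coding genes the highest cover was 31.5% and 15.7% in WT and between 9.41% and 19.1% in TPdh-/-. At 1000 bp before the start it was at most 3.49%, and at 1000 bp into the gene it was 12.8% and 5.81% in WT and 2.33%, 2.33% and 3.49% in TPdh-/-. Called peaks had median widths of 1263 and 989 bp in the WT libraries, and the TPdh-/- libraries had 890, 874 and 1043 bp, beside 1186, 987, 844, 905 and 1025 bp at the called coding genes. The median midpoint of the 21 genes called throughout lay 117 and 95 bp inside the gene in WT and 79, 39 and 85 bp in TPdh-/-.

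**Figure D4:**
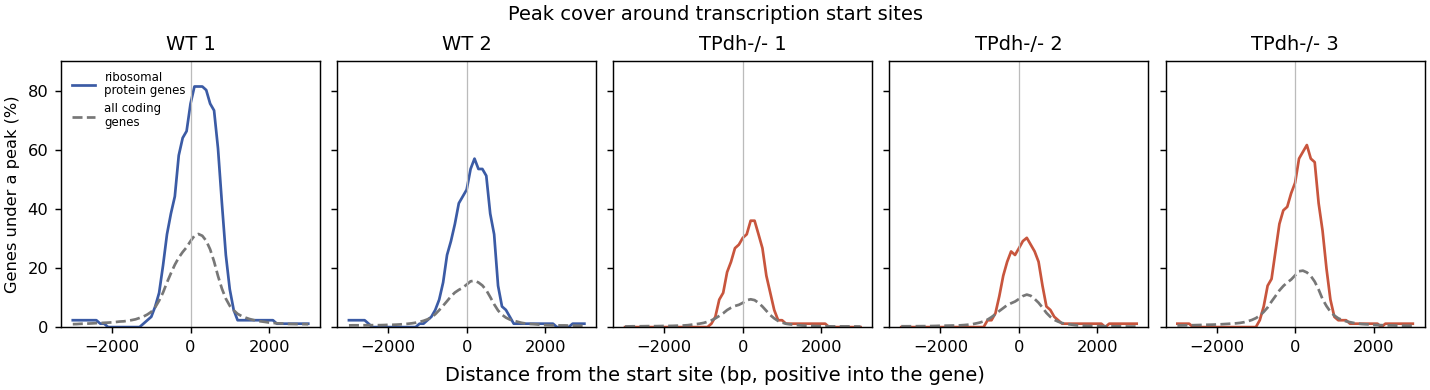
Share of genes (%) with a peak over each position, against distance from 1 representative start in bp (positive into the gene), for ribosomal protein genes (solid) and all coding genes (dashed), by library. The solid line tops at 81.4% in WT replicate 1 and at 30.2% in TPdh-/- replicate 2, each within 300 bp inside the gene.

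Some peaks lay over 1000 bp from the start of the gene. That of Rpl35 lay inside the neighbouring gene Arpc5l in 3 libraries, and that of Rpl35a inside Iqcg in both WT libraries. With a window of 1000 bp, 87.2% of the genes were called in WT replicate 1 in place of 90.7%. Another 9 genes shared a peak with a close neighbour whose start was nearer to the midpoint in at least 1 library. Rps28 and Ndufa7 start 10 bp apart, Rps18 and Vps52 56 bp, and Rpl36al and Mgat2 74 bp, each pair on opposite strands. Of 19 genes with another coding start within 1000 bp, 19, 17, 9, 11 and 17 were called, which is 100%, 89.5%, 47.4%, 57.9% and 89.5%. Of the other 67, 88.1%, 64.2%, 38.8%, 31.3% and 64.2% were called. With another coding start within 3000 bp, 96.3%, 81.5%, 40.7%, 51.9% and 81.5% of 27 genes were called. Of the rest, 88.1%, 64.4%, 40.7%, 30.5% and 64.4% were called, which is level in TPdh-/- replicate 1. The same split over all coding genes is not given.

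The strongest promoters were those of Rpl19, Rps14 and Rpl4, all of them core proteins of the ribosome. Fold enrichment here is the mean over a whole peak of its enrichment above the background that MACS2 estimated in the same library, so the width of a peak enters it. At Rpl19 (chr11:98026710-98030492) it was 3.84 and 3.91 in WT and 3.91, 3.88 and 3.73 in TPdh-/-, and the peak stood between the 99.0 and 99.7 percentile of every list. At Rps14 it was 4.14 and 4.08 in WT and 3.72, 4.02 and 4.12 in TPdh-/-, between the 94.7 and 99.6 percentile. At Rpl4 (chr9:64173375-64178666), which hosts 5 snoRNAs in its introns, it was 4.03 and 3.98 in WT and 3.87, 3.77 and 4.03 in TPdh-/-. The groups overlapped at all 3. Rpl37 and Rpl41 ranked low among the genes called throughout, with median percentiles of 50.6 and 58.1. Rpl37 had 2.88 and 2.73 in WT and 2.69, 2.83 and 2.44 in TPdh-/-, and Rpl41, the shortest protein of the ribosome, had 2.72 and 2.96 in WT and 2.52, 2.45 and 2.75 in TPdh-/-. Among all 21 genes, Rpl41, Rpl37 and Rps6 had the widest peaks, with medians of 1933, 1492 and 1332 bp over the 5 libraries. The peak of Rpl41 lay nearer to another coding start in all 5 libraries.

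Over the 21 genes called throughout, mean enrichment in both WT libraries lay slightly above that in TPdh-/-. The mean log2 fold was 1.749 and 1.709 in WT and 1.675, 1.645 and 1.663 in TPdh-/-, so that both WT libraries lay above all 3 TPdh-/- libraries. The difference was 0.07 on the log2 scale (1.729 ± 0.0281, SD, n = 2, against 1.661 ± 0.0151, SD, n = 3; exact permutation test, two-sided, p = 0.2), beside 0.03 over the 2390 coding genes called throughout (p = 0.2, exact permutation test). With each library centred on those coding genes it was 0.03. By gene, 16 were higher in WT and 5 lower, with differences from -0.25 to 0.44 and a median of 0.06. At 4 of the 21 (19.0%) both WT values lay above all TPdh-/- values and at 0 below, beside 15.8% and 8.08% of the 2390 coding genes. The share above was near that of coding genes. Among the 4 is Rpl11, whose values come from different starts in different libraries, as set out below.

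The 4 genes were Rpl11, Rps28, Rpl28 and Rps19. Rps28, a small subunit protein at the mRNA exit, had 4.07 and 3.38 in WT and 2.8, 3.06 and 2.92 in TPdh-/- (log2 difference 0.34). Its peak lay nearer to another coding start in all 5 libraries. Rpl28 had 3.38 and 3.47 in WT and 2.79, 2.61 and 2.88 in TPdh-/- (0.31). Rps19, the gene most often mutated in Diamond-Blackfan anaemia, had 3.11 and 3.04 in WT and 2.99, 2.83 and 2.9 in TPdh-/- (0.08). The nearest WT and TPdh-/- values were 3.38 and 3.06 at Rps28, 3.38 and 2.88 at Rpl28, and 3.04 and 2.99 at Rps19.

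Rpl11, which with Rpl5 binds 5S rRNA and Mdm2, showed the largest difference, 0.44, but the values do not come from 1 place. Its peak with the highest −log10 q lay at the start of the protein-coding transcripts in 3 libraries and about 24 kb away, at the start of a noncoding transcript, in TPdh-/- replicates 1 and 2. At the protein-coding start (chr4:136052479-136053479 in WT replicate 1) the fold was 4.13 and 3.64 in WT, 2.8 in TPdh-/- replicate 1 and 3.24 in TPdh-/- replicate 3, and TPdh-/- replicate 2 had no peak. At the distant start it was 2.62 and 2.74 in WT and 2.62, 2.78 and 2.69 in TPdh-/-, which overlap. The peaks of the other 20 genes shared bases across all 5 libraries. Without Rpl11 the mean log2 fold was 1.734 and 1.701 in WT and 1.689, 1.654 and 1.662 in TPdh-/-, a difference of 0.05 with the groups still separate (p = 0.2, exact permutation test).

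**Figure D5:**
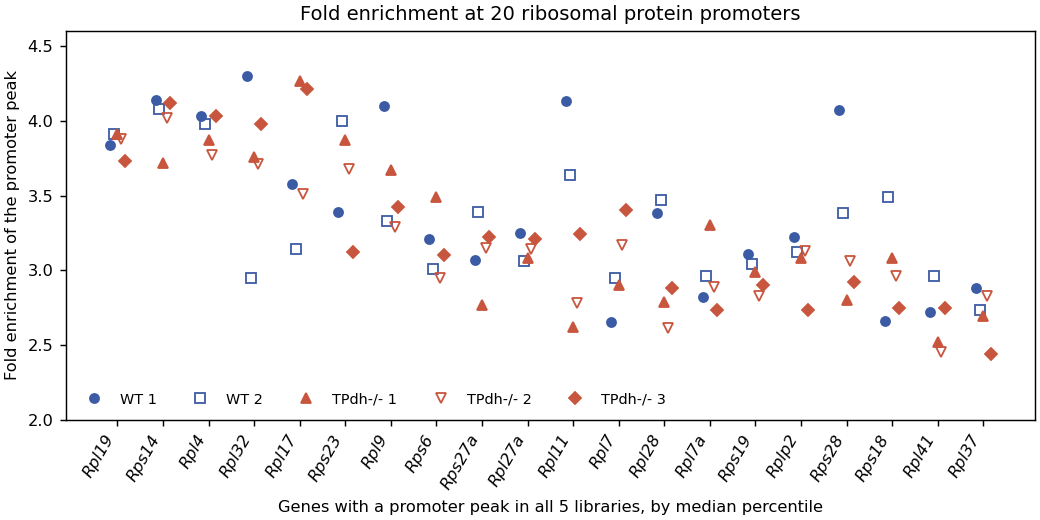
Fold enrichment of the promoter peak (linear scale) at 20 genes called in all 5 libraries, ordered by median percentile, with 1 point for each library (blue WT, red TPdh-/-). Points of the 2 groups mix at most genes, and at Rps28 and Rpl28 both blue points lie above the red ones.

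Rpl17, Rpl7 and Rpl32 stood at the other end, with higher mean fold in TPdh-/-. Rpl17 had 3.58 and 3.14 in WT and 4.27, 3.51 and 4.21 in TPdh-/- (log2 difference -0.25). Rpl7 had 2.65 and 2.95 in WT and 2.9, 3.17 and 3.4 in TPdh-/- (-0.17), and Rpl32 had 4.3 and 2.95 in WT and 3.76, 3.71 and 3.98 in TPdh-/- (-0.10). The groups overlapped at each of them. At Rpl32 the highest and the lowest value were the 2 WT libraries.

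Percentiles are ranks within lists of unequal length, so they cannot be compared between groups apart from that length. The mean percentile of the 21 genes was 87.0 and 75.8 in WT and 64.7, 67.4 and 73.4 in TPdh-/-, and both WT values lay above the rest (difference 13.0, exact permutation test, two-sided, p = 0.2). Over the 2390 coding genes the difference was 10.6 (p = 0.4, exact permutation test). With lists of 4920 peaks the difference turned to -3.02 over 17 genes, and ranked against the 2390 genes alone it was 1.7. Without WT replicate 1 it was 7.35. The percentile was higher in both WT libraries than in any TPdh-/- library at 8 of 21 genes and lower at 0, beside 26.4% and 1.38% of coding genes, a count that the length of the lists enters as well. Median widths were 1337 and 1109 bp in the WT libraries, and those of TPdh-/- were 995, 905 and 1115 bp, which overlap (difference 218 bp, p = 0.4, exact permutation test), beside a difference of 273 bp over coding genes. Without WT replicate 1 the difference in width was 104 bp. Width was greater in both WT libraries at 6 of 21 genes (Rpl17, Rpl32, Rpl37, Rpl41, Rpl7 and Rps27a) and smaller at 0, beside 31.3% and 0.293% of coding genes. The order of the 21 genes by fold was partly kept between libraries, with Spearman's rho from 0.399 to 0.819 over 21 genes that share each library's normalization, highest between TPdh-/- replicates 1 and 2.

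Among the proteins of the stalk, which recruits translation factors, the calls of promoter peaks were uneven. Rplp2 was called throughout, at 3.22 and 3.12 in WT and 3.08, 3.13 and 2.73 in TPdh-/-. Rplp1 was called in all but TPdh-/- replicate 2, at 3.27, 3.13, 3.52 and 2.81. Rplp0, the base of the stalk, was called only in WT replicate 1, where its fold was 4.18 and its percentile 92.4. A strong peak in 1 library was thus missing from the other 4. The other 14 genes of WT replicate 1 alone ranked lower, from the 16.3 to the 86.3 percentile with a median of 43.8. Of these, Rpl12, Rpl13a, Rpl14, Rpl24 and Rpl37a had folds of 2.11, 2.21, 2.63, 2.3 and 3.83. RPL13A is the protein released from the ribosome under interferon-gamma to silence mRNAs. In WT replicate 1 the median percentile was 90.2 for genes called in all 5 libraries, 77.5 for those in 4, 75.0 for those in 3, 71.7 for those in 2 and 49.7 for those in that library alone.

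Several genes with functions in T cells or in signalling were among those called in some libraries. Rps6, the target of the S6 kinases below mTOR, was called throughout, at 3.21 and 3.01 in WT and 3.49, 2.95 and 3.1 in TPdh-/-. Rps27a, which encodes ubiquitin fused to a ribosomal protein, was called throughout, at 3.07 and 3.39 in WT and 2.77, 3.15 and 3.22 in TPdh-/-. Neither separated the groups. Rpl5, the partner of Rpl11, was called in both WT libraries at 4.17 and 3.62 and in TPdh-/- replicate 3 at 2.98. Rpsa, also known as the laminin receptor, was called in the same 3 libraries, at 3.16, 2.94 and 3.11. Rpl22, which is needed for the development of alpha-beta T cells, was called in WT replicate 1 at 3.32 and TPdh-/- replicate 3 at 2.87, and its paralogue Rpl22l1 in none. Rpl10a was called in WT replicate 1 at 4.35 and in TPdh-/- replicates 1 and 3 at 3.34 and 3.47. Rpl3, a protein of the peptidyl transferase centre, was called in all but TPdh-/- replicate 2, at 3.25, 3.02, 3.05 and 3.47. Rps27 was called in all but TPdh-/- replicate 1, at 3.33, 4.07, 4.14 and 4.29, with its highest values in TPdh-/-. Its paralogue Rps27l, a target of p53, was called in all but TPdh-/- replicate 2, at 2.92, 3.2, 3.19 and 2.76.

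Of the 8 genes without a called promoter peak, 5 were paralogues of another ribosomal protein gene. Of 8 paralogues in all, Rpl3l (heart and skeletal muscle), Rpl10l and Rpl39l (testis), Rpl22l1 and Rps27rt had no peak in any library, and Rpl7l1, Rpl36al and Rps27l had one in 4 libraries each. Leaving out the paralogues, 96.2% and 73.1% of the genes were called in WT and 42.3%, 39.7% and 73.1% in TPdh-/-. At Rpl3l a peak lay just outside the window, 3316 and 3476 bp away in WT and 3356 and 3180 bp away in TPdh-/- replicates 2 and 3. The other 3 without a called promoter peak were Rps19bp1, Rpl23a and Rps4x. Rpl23a, which binds the nascent chain near the exit tunnel, had its nearest peak 4147 bp away in WT replicate 1 and 4697 bp away in TPdh-/- replicate 3. Rps4x had none within 125451 bp. Both encode constitutive proteins of the ribosome. Rps4x is 1 of 4 X-linked genes. Of the others, Rpl39 and Rpl36a were called in WT replicate 1 alone, at 2.71 and 2.41, and Rpl10 was called in both WT libraries at 3.19 and 2.43 and in TPdh-/- replicate 3 at 2.69. Over all 948 coding genes of the X chromosome, 19.3% and 8.65% were called in WT and 3.38%, 2.64% and 8.54% in TPdh-/-, and the part of sex, which is not given per library, was not tested.

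Other genes of translation and ribosome assembly, 59 in all, had a peak in 83.1% and 55.9% of cases in WT and in 30.5%, 40.7% and 54.2% in TPdh-/-. Of 5 elongation factor genes, 5, 3, 1, 2 and 5 were called, and Eef1a1 throughout, at 3.71 and 3.53 in WT and 3.71, 3.9 and 3.75 in TPdh-/-. Of 12 genes of initiation and others with a pyrimidine tract, 11, 9, 4, 5 and 5 were called. Eif3e, Eif3h and Eif4b, 3 initiation genes, were called in both WT libraries and no TPdh-/- library, beside 2.2% of coding genes. Of 25 genes of ribosome assembly, 18, 9, 5, 8 and 11 were called, and Polr1b, Dkc1, Nop10, Bop1, Tcof1, Rrs1 and Grwd1 in none. Of 14 regulators, among them Gabpa, Max and Sp1, 13, 10, 6, 7 and 9 were called and Mtor in none. Mlst8, a subunit of the mTOR complexes, was called in WT alone, at 4.69 and 3.99.

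Many ribosomal protein genes host snoRNAs, small RNAs that guide rRNA modification. Of 30 ribosomal protein genes with a snoRNA inside them, 96.7%, 70.0%, 40.0%, 40.0% and 70.0% were called in the 5 libraries, and of 56 without one 87.5%, 69.6%, 41.1%, 35.7% and 69.6%. Over all 86 genes these shares were 90.7%, 69.8%, 40.7%, 37.2% and 69.8%. Ribosomal protein genes have many processed pseudogenes. Of 300 annotated pseudogenes named after ribosomal proteins, 19, 12, 6, 6 and 11 had a peak within 3000 bp, and at 10, 6, 4, 5 and 7 of these every such peak also lay at the promoter of a coding gene.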

How the data were processed

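Broad peaks of 5 ChIPseq libraries were used, 2 of WT and 3 of TPdh-/- TM cells. Per the labels and methods, the authors aligned reads to GRCm38/mm10 with BWA 0.7.17, kept uniquely mapping reads with SAMtools 1.15.1, left out blacklisted regions, and called peaks per library with MACS2 2.2.6, with no input control named. The deposited columns hold a fold (mean ratio of the region over the estimated background), −log10 p, −log10 q and a score of 10 times −log10 q, cut to a whole number. The smallest −log10 q was 1.00 to 1.03, and the read depth of each library is unknown. From there, promoter peaks (at least 1 bp within 3000 bp of any start, GENCODE M21) were scored in pandas 2.3.3 and numpy 2.4.6 (Python 3.11.15; tests in scipy 1.17.1), and the peak of highest −log10 q was kept for each gene. Percentiles are ranks of −log10 q within a list. Groups were compared by exact permutation over 10 ways, p being double the smaller one-sided p. On simulated lists for 8922 isolated genes, 100% of promoter peaks were recovered. These peaks were placed inside the window of genes far from any other, so this checks the code only. It does not cover genes that share a window. Members and lists were chosen with earlier results of these data known. Genes were named by presence in the fewest libraries (up to 15, ties by name), the 3 highest and lowest by rank and by difference, the 3 widest, and fixed roles, beside others named after their values were seen. Results for some single genes are not reported here and are left out of the plots by gene, but the genes stay in all counts. Alternatives were stricter lists (−log10 q from 2 or from 5), equal lists, a window of 1000 bp, other start sites, peak midpoints, highest fold, left-out genes or libraries, other summaries and the replicate block. A single start and leaving out Rps19bp1 were added after seeing the data.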

Additional observations from a re-analysis of the deposited data

How the results depend on the processing

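Under the alternatives run, 89 of 98 values kept their direction or stayed within 1.5 times the count, and no group comparison could pass 0.05 under any of them. Some of the 98 could not move. No paralogue is among the 21 genes called throughout and Rps19bp1 had no peak, so leaving these out kept the 21 as they were. Leaving out a library can only keep or raise the count called in all the rest. The percentile difference reversed to -3.02 with lists of equal length. The count of genes called in all 5 libraries, 21, was 4 at a −log10 q of at least 5 and 7 of 41 without the 45 genes that share a window with another coding gene, and it ranged from 21 to 33 when 1 library was left out, with 33 without TPdh-/- replicate 2. The count called in WT alone, 3, was 5 at a −log10 q of at least 2, 6 at 5 and 1 without the genes that share a window. It ranged from 3 to 18 when 1 library was left out, with 18 without WT replicate 2 and 17 without TPdh-/- replicate 3, where WT or TPdh-/- is judged by fewer libraries. For neither count are the shares of coding genes under the same settings given, so these counts have no background. The share difference ranged from 20.5 to 41.5 points over the left-out libraries, the log2 fold difference from 0.0483 to 0.0805, the percentile difference from 7.35 to 18.5 and the width difference from 104 to 324 bp, each lowest without WT replicate 1. Centred on all coding genes, the log2 fold difference was 0.0289. Replicate numbers did not establish pairing, with correlations of -0.072 and 0.268 in 2 pairs. Blocking on replicate number used 2 pairs and dropped TPdh-/- replicate 3, and the differences in share, log2 fold, percentile and width became 41.3 points, 0.0693, 15.4 and 273 bp, with no test at that size. The read depth of each library is unknown, so a missing peak may lie below the threshold of a shorter list, which was not tested.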
